A study of Mus musculus with 15 samples.

Results

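The genes described here are 38 mouse genes that were chosen by name: the transporters and enzymes that take up glucose and carry it through glycolysis to lactate, the oxygen-sensing HIF subunits and prolyl hydroxylases, and further known targets of HIF. They were picked by function from 46603 gene identifiers, by a rule that uses no measured value but was set with earlier results of these data known, and all 38 symbols were found. Of these, 36 passed the filter on low counts of the main test, among 15997 genes in all, and the exceptions were Slc2a3 and Aldoc. The cells were wild-type mouse embryonic fibroblasts (MEFs), fibroblasts that the labels give as from 10.5 day old BALB/c embryos, kept in DMEM with 10% foetal bovine serum. MEFD0 was taken at day 0. MEFD3plu had 3 days in that medium with 10 µM rosiglitazone, 1 µM dexamethasone, 10 µg/mL insulin and 3-isobutyl-1-methylxanthine at 0.5 mM, a mixture that drives fibroblasts to fat cells, and MEFD5plu had the same 3 days followed by 2 days in plain growth medium. MEFD3min and MEFD5min stayed in growth medium for 3 and 5 days. Each of the 5 conditions had 3 replicates, numbered 1, 3 and 4, and messenger RNA was counted per gene by sequencing. No label says whether the replicates were separate cultures, so the p-values measure the spread among these samples, which may be technical.

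Glycolysis splits glucose into pyruvate in the cytosol, and lactate dehydrogenase turns pyruvate into lactate when it is not passed to mitochondria. The rate is set largely at glucose entry, at hexokinase and at phosphofructokinase, the latter under control of fructose 2,6-bisphosphate made by the PFKFB enzymes. Many of these genes are also targets of the hypoxia-inducible factors HIF-1α (Hif1a) and HIF-2α (Epas1), which the EGLN prolyl hydroxylases mark for destruction while oxygen is present. In fat cells glycolysis also supplies glycerol 3-phosphate and acetyl groups for triglyceride.

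Levels are given in CPM, the customary unit for a gene's count relative to all counted reads of its library, here with the library total scaled by the TMM factor. The libraries held 24030558 to 37281126 counts, and the smallest was replicate 3 of MEFD5min. Summed markers of fat cells lay between 42.2 and 65.2 CPM in the 9 untreated libraries and between 7441 and 11428 CPM in the 6 treated ones, with Lep at or under 3 counts per library throughout. Fibroblast markers were present in every library and summed highest in MEFD3min, at 18029 to 25590.5 CPM against 8373 to 11959.6 CPM elsewhere. Col1a1, Col1a2 and Col3a1 carried most of that sum, with means of 2914, 6217 and 8681 CPM in MEFD3min, and Pdgfra peaked there too. Vim, Thy1, S100a4 and Pdgfrb had their highest means in other conditions, Vim at 6542 CPM in MEFD0 against 2814 in MEFD3min. Summed markers of epithelium, blood, muscle, leukocytes and endothelium never passed 6.97 CPM. Those of neural cells summed to 39.2 to 42.3 CPM in MEFD0 and 7.47 to 21.5 CPM in the other conditions. Map2 and Tubb3 carried the MEFD0 sum, with means of 32.7 and 7.90 CPM. Rbfox3 had no count in any library, and Gfap had 5, 4 and 3 counts in MEFD0. Mitochondrially encoded transcripts took 4.96 to 6.64% of counts in treated libraries and 2.19 to 4.12% in untreated ones. The parts that these shifts have in the differences below were not tested, and in bulk RNA fewer cells of a type and less RNA per cell cannot be told apart. CPM were scaled between libraries by the trimmed mean of M-values (TMM). A gene was called higher or lower where edgeR's quasi-likelihood test, fitted once over all 15 samples, gave a Benjamini-Hochberg adjusted p under 0.05 over the 15997 genes.

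HIF binds a short DNA core, ACGTG or GCGTG, and the upstream sequences of 5 members with contrasting responses are shown so that this core can be seen beside the values that follow. Ero1l and Hk2 were higher with treatment at day 3 and lower at day 5, Bnip3 was higher at both days, Ankrd37 was lower at both, and P4ha1 was lower at day 3. All 5 hold ACGTG, which 21 of the 34 members with a promoter window did, so they do not show how often it occurs. Ldhb and Pfkl were among the members without it. The bases come from RefSeq promoter windows (GRCm38.p6), are written 5′ to 3′ on the gene's strand, and leave out every base that GENCODE M21 counts as exon. Upstream, and each distance to a start, refers to the RefSeq start of the window. GENCODE M21 has Ero1l and Ankrd37 begin further upstream, at bases 45318771 and 46005707, so their stretches lie between exons of the annotated gene or its neighbours. Capitals mark ACGTG on either strand, which reads CACGT where it lies on the other strand. The Ero1l stretch is chr14:45318573-45318702 on the minus strand, Hk2 chr6:82774455-82774704 minus, Bnip3 chr7:138909520-138909756 minus, Ankrd37 chr8:45999868-46000100 minus and P4ha1 chr10:59323046-59323295 plus.
Ero1l: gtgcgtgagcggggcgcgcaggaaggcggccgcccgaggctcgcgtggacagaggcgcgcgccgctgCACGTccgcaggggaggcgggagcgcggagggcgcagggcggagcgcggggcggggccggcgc
Hk2: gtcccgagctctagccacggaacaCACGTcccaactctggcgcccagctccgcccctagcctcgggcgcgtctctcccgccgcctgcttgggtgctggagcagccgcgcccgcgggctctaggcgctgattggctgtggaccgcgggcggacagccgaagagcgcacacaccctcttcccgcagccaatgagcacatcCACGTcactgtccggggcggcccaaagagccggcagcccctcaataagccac
Bnip3: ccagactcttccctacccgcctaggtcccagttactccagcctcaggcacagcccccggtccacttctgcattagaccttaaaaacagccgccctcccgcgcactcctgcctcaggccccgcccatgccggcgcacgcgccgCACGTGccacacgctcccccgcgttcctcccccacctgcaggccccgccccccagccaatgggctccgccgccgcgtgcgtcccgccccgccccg
Ankrd37: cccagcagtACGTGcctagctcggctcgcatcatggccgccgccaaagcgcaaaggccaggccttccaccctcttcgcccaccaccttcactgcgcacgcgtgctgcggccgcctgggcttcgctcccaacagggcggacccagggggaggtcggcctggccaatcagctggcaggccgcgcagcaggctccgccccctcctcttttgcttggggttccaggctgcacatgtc
P4ha1: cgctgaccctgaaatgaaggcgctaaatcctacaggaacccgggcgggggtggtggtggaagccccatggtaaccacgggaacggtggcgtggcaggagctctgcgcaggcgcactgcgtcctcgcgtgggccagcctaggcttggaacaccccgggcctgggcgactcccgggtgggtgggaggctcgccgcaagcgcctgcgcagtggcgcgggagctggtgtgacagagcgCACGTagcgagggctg

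ACGTG lay 63 bases before the start of Ero1l, 226 and 52 before that of Hk2, 241 before that of Ankrd37 and 16 before that of P4ha1. A further match 6 bases before the Ankrd37 start falls in an annotated exon and is not shown. In Bnip3 the capitals spell the palindrome CACGTG, which counts as ACGTG on both strands, at 108 and 107 bases. Promoter windows were matched for 34 of the 38 members, leaving out Slc2a3, Epas1, Bnip3l and Ndrg1. Within the 250 bases before the start, 21 of these 34 genes (61.8%) held ACGTG, against 4998 of 27025 genes with a window (18.5%). Many members were chosen as known HIF targets, so this excess is no independent result of these data. Over windows, of which a gene may have several that overlap, ACGTG was in 24 of 48 against 16.6% of all 32851, GCGTG in 56.2% against 28.2%, and either core in 81.2% against 38.6%. CACGTG, which is also bound by other factors, was in 12.5% against 6.0%. Member windows were also richer in C and G, with a median of 61.0% against 52.4%. Members with the core were found among those that rose and those that fell: ACGTG was in 14 of the 17 members with a window that were higher with treatment at day 3, 3 of 7 that were lower and 4 of 9 that were not called. At day 5 the same counts were 8 of 13, 8 of 12 and 5 of 8. A match is a run of letters and not a bound site.

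The summed level of the 38 genes was 7983 ± 362 CPM (SD, n = 3) in MEFD0, and 5880.0 ± 427 in MEFD3min against 8153 ± 177 in MEFD3plu. At day 5 it was 13884 ± 885 in MEFD5min and 14405 ± 419 in MEFD5plu. It was thus lowest in untreated cells at day 3, where the replicates ran from 5616 to 6372 CPM, and both day 5 conditions stood above all other libraries, at 12888 CPM or more. As a share of all counts the members took 0.572% ± 0.0193 in MEFD3min, 1.45% ± 0.108 in MEFD5min and 1.35% ± 0.0552 in MEFD5plu. The order of the day 5 conditions was thus the reverse of that in CPM and depends on the scaling. The peak of single genes was spread: 16 members had their highest mean in MEFD5min, 12 in MEFD5plu, 7 in MEFD3plu, 3 in MEFD3min and none in MEFD0. The lowest mean fell in MEFD0 for 15 members and in MEFD3min for 14. Per kilobase of exon, the most abundant members over all samples were Aldoa at 432 CPM per kb, Pkm at 358, Tpi1 at 332 and Ldha at 280.3, and the same 4 led when the longest transcript set the length. Slc2a3, a glucose transporter of neurons, and Aldoc, the brain form of aldolase, were last, with means of 0.00829 and 0.0563 CPM per kb. Slc2a3 had 0 to 6 counts in a library, with the highest values, 3, 5 and 6, in MEFD3plu. Aldoc had 0 to 15 counts, with 9, 15 and 10 in MEFD5min and 2, 0 and 1 in MEFD3min. Without the filter Aldoc could be tested, and edgeR called it higher with treatment at day 3 (log2 2.41, adjusted p = 0.0401) and higher in MEFD5min than in MEFD3min (log2 3.35, adjusted p = 0.00146), but not different with treatment at day 5 (log2 -1.41, adjusted p = 0.156). The day 3 call was made in 5 of the 8 alternatives that tested the gene. Both higher calls are against MEFD3min, at 2, 0 and 1 counts, so the size of these log2 values is uncertain.

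**Figure D1:**
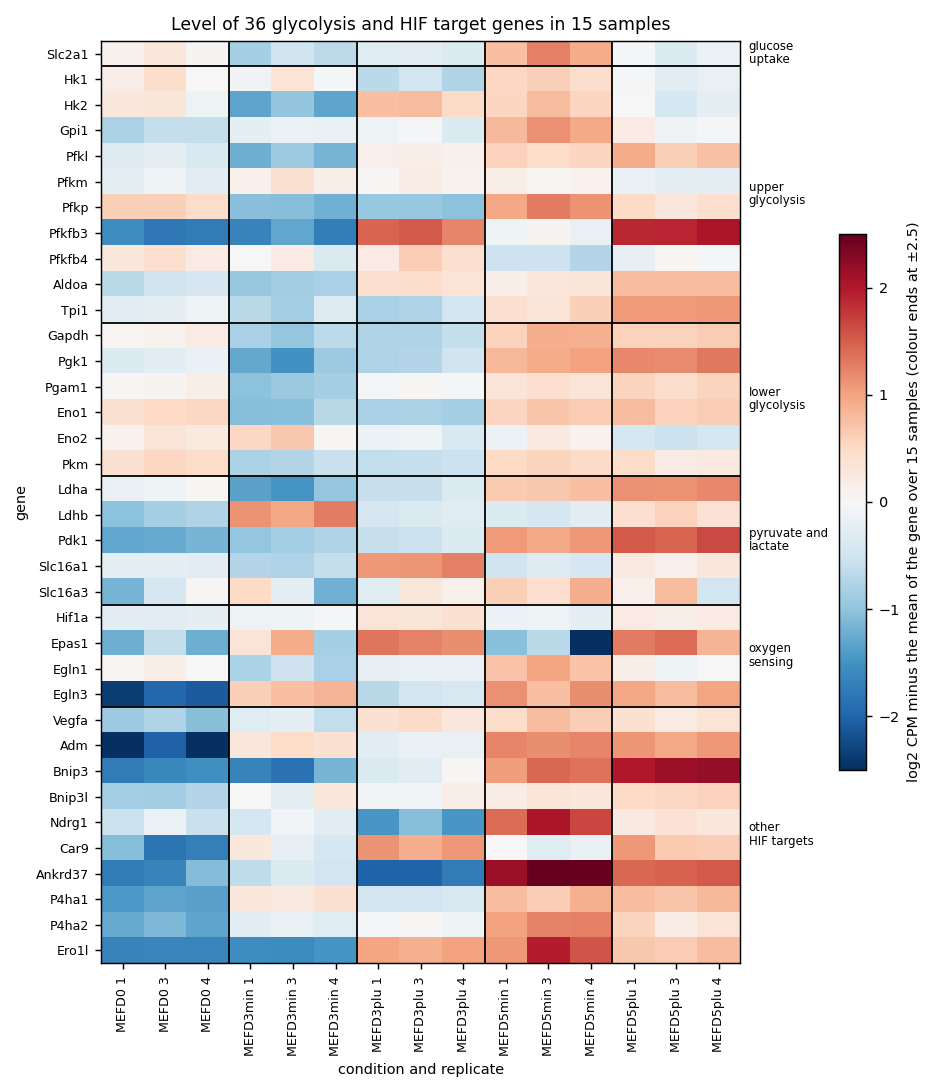
Colour gives the log2 CPM of each of the 36 tested genes (rows, in blocks by role) in each of the 15 samples (columns, by condition and replicate number) minus that gene's mean over the samples, with colours ending at ±2.5. Most glycolytic rows are blue in MEFD3min and red in both day 5 conditions, while Pfkfb3 and Slc16a1 are red mainly in treated cells and Ldhb is red mainly in MEFD3min.

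At day 3, treated cells had more members raised than lowered. Of the 36 tested, 18 were higher in MEFD3plu than in MEFD3min, where 28.0% of all tested genes were higher, and 8 were lower, where 28.0% of all genes were lower. A change of at least 2-fold was reached by 8 of the higher and 4 of the lower members, and the median log2 difference was 0.28 against -0.00 for all genes tested. At day 5, after 2 days without the mixture, the split was 15 higher and 13 lower in MEFD5plu than in MEFD5min, beside 26.3% and 24.2% of all genes, and the median was -0.05 against 0.01. Just 2 members in each direction then differed 2-fold. Scaling by total counts alone, which moved the median of all genes by -0.16 at day 5, gave 11 higher and 17 lower members there.

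Day 3 and day 5 differed gene by gene. The 12 members higher at both days were Pfkl, Pfkfb3, Pfkfb4, Aldoa, Pgk1, Ldha, Pdk1, Slc16a1, Hif1a, Epas1, Bnip3 and Car9, and the 4 lower at both were Hk1, Eno2, Ndrg1 and Ankrd37. Slc2a1, Hk2, Egln1, Vegfa and Ero1l were higher at day 3 and lower at day 5, and Ldhb alone among the members went the other way. Gapdh, Eno1, Pkm and Slc16a3 were called at neither day by edgeR, although DESeq2 called Gapdh and Pkm lower at day 5. A direct test of the treatment effect at day 3 minus that at day 5 called 14 members positive, where 22.6% of all genes were, and 6 negative, where 25.8% were. With scaling by total counts alone, which moved the median of all genes by 0.18, those counts were 20 and 4.

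**Figure D2:**
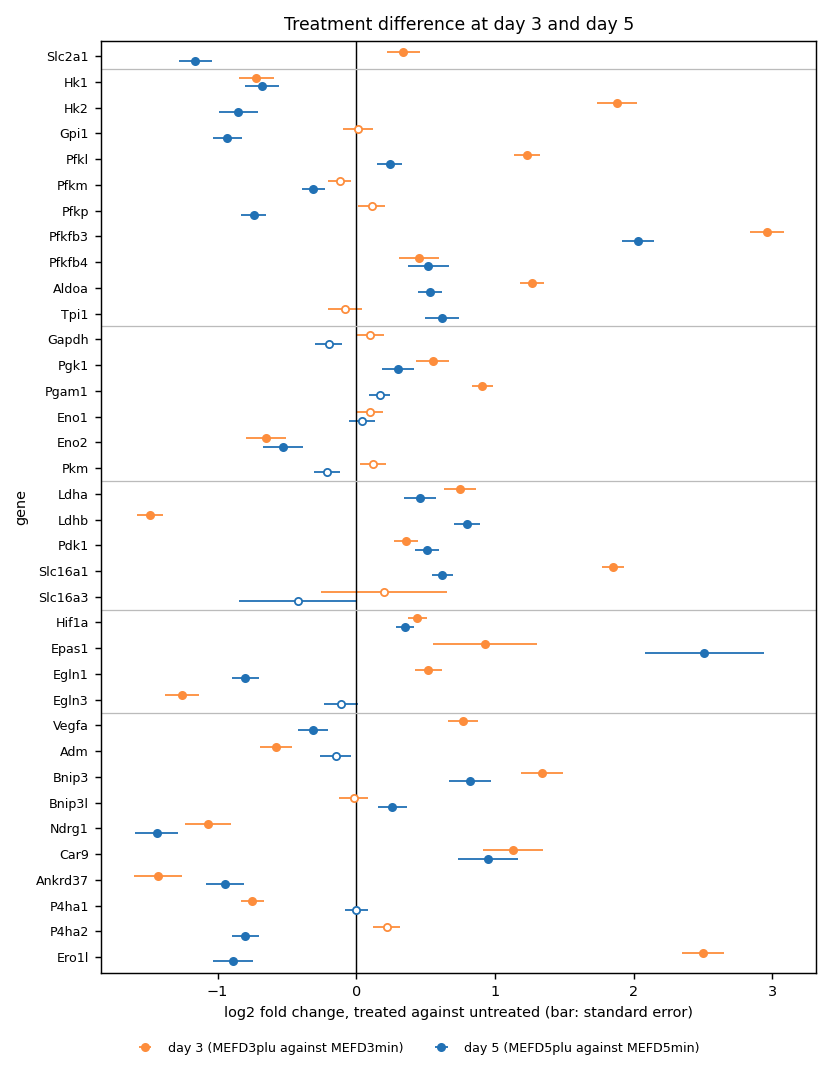
Each point is the log2 fold change of a gene in treated against untreated cells at day 3 (orange) or day 5 (blue), from 3 replicates per condition, with a bar of 1 standard error on each side, and filled points have an adjusted p under 0.05. Ero1l, Hk2, Slc2a1, Egln1 and Vegfa have an orange point on the right of 0 and a blue point on the left, and Ldhb the reverse.

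Glucose uptake rests here on Slc2a1, which encodes the GLUT1 transporter of most cells. Its level was 109, 123 and 106 CPM in MEFD0, 56.9, 71.8 and 64.1 in MEFD3min, 82.4, 83.0 and 79.4 in MEFD3plu, 171, 243 and 193 in MEFD5min and 99.6, 80.0 and 91.9 in MEFD5plu (replicates 1, 3 and 4). Untreated cells at day 5 stood above every other library, and no library of either treated group overlapped its untreated counterpart. Slc2a1 was 1.27-fold higher with treatment at day 3 (log2 0.34, SE 0.120, edgeR quasi-likelihood adjusted p = 0.0220) and 2.23-fold lower at day 5 (log2 -1.16, SE 0.121, adjusted p = 6.36e-07). The change between the days was 1.50 on the log2 scale (SE 0.170, edgeR adjusted p = 1.92e-06). The day 3 call ended without replicate 1 of MEFD3min (log2 0.26, edgeR adjusted p = 0.110), and also without replicate 1 (0.34, 0.0528) or replicate 3 of MEFD3plu (0.33, 0.0568).

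In upper glycolysis, from hexokinase to triose phosphate isomerase, 5 of 10 tested members were higher and 1 lower at day 3, and at day 5 5 were higher and 5 lower. Pfkfb3, whose product makes the fructose 2,6-bisphosphate that activates phosphofructokinase, had the largest change. It measured 5.61, 7.24 and 5.41 CPM in MEFD3min against 49.0, 51.6 and 41.8 in MEFD3plu, and 16.6, 18.8 and 15.8 in MEFD5min against 66.2, 67.5 and 74.2 in MEFD5plu. Treated and untreated libraries were far apart at both days, and MEFD0, at 5.17 to 6.07 CPM, was as low as MEFD3min. The difference was 7.77-fold at day 3 (log2 2.96, SE 0.124, edgeR adjusted p = 3.01e-12) and 4.07-fold at day 5 (log2 2.03, SE 0.115, adjusted p = 3.44e-10). Pfkfb4, a related kinase-phosphatase, was 1.36-fold and 1.44-fold higher, on levels of 5.24 to 13.3 CPM. Its calls ended at day 3 without replicate 4 of MEFD3min (log2 0.31, edgeR adjusted p = 0.0685) or replicate 3 of MEFD3plu (0.34, 0.0802) and with the compared samples only (0.44, 0.0596), and at day 5 without replicate 4 of MEFD5min (0.41, 0.0506) and with total counts alone (0.36, 0.0671).

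Hk2, the inducible hexokinase that sits on mitochondria, measured 57.6, 59.7 and 44.2 CPM in MEFD0, 19.3, 24.4 and 19.2 in MEFD3min, 80.5, 83.7 and 67.2 in MEFD3plu, 69.4, 83.5 and 69.7 in MEFD5min and 47.5, 35.3 and 40.4 in MEFD5plu. Untreated cells were lowest at day 3 and had risen by day 5, whereas treated cells were high at day 3 and had fallen by day 5. The treatment difference was 3.68-fold upwards at day 3 (log2 1.88, SE 0.143, edgeR adjusted p = 5.89e-09) and 1.81-fold downwards at day 5 (log2 -0.85, SE 0.138, adjusted p = 7.37e-05), with a difference between the days of 2.73 (SE 0.199, adjusted p = 1.05e-08). Hk1, the constitutive hexokinase, was lower with treatment at both days, by 1.65-fold and 1.60-fold.

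Aldoa, the aldolase of muscle and most growing cells, measured 597, 635 and 658 CPM in MEFD3min and 1515, 1568 and 1472 in MEFD3plu, then 1277, 1405 and 1419 in MEFD5min and 1968, 1971 and 1982 in MEFD5plu. MEFD0 lay at 719.6 to 859.6 CPM, and the treated libraries of each day stood above all untreated libraries of that day. The difference was 2.41-fold at day 3 (log2 1.27, SE 0.0864, edgeR adjusted p = 1.35e-09) and 1.44-fold at day 5 (log2 0.53, SE 0.0853, adjusted p = 6.98e-05). The phosphofructokinase subunits parted: Pfkl, the liver type, was 2.34-fold higher at day 3 and 1.18-fold higher at day 5, while Pfkm, the muscle type, and Pfkp, the platelet type, were not called at day 3 and were 1.24-fold and 1.67-fold lower at day 5. The day 5 call of Pfkl (log2 0.24, edgeR adjusted p = 0.0386) was lost with DESeq2 (0.19, 0.0931) and its size factors (0.19, 0.0894), with total counts (0.08, 0.530), with no filter (0.24, 0.0666) and on leaving out replicate 1 (0.15, 0.213) or 4 of MEFD5plu (0.25, 0.0704) or any replicate of MEFD5min (0.20 to 0.26). Gpi1, glucose-6-phosphate isomerase, differed by 0.01 on the log2 scale at day 3 (SE 0.107) and was 1.91-fold lower at day 5, and Tpi1, triose phosphate isomerase, was 1.54-fold higher at day 5 alone.

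Lower glycolysis, from Gapdh to pyruvate kinase, had the smallest share of its members called at day 5. At day 3 Pgam1 and Pgk1 were higher and Eno2 was lower out of 6 tested, and at day 5 Pgk1 was higher and Eno2 lower. That was 33.3% and 16.7% at day 3 (28.0% and 28.0% of all genes) and 16.7% and 16.7% at day 5 (26.3% and 24.2%). Pgam1, a phosphoglycerate mutase, measured 214, 229 and 243 CPM in MEFD3min and 419, 445 and 423 in MEFD3plu, levels that did not overlap, against 541, 577 and 539.8 in MEFD5min and 642, 586 and 642 in MEFD5plu. It was 1.88-fold higher at day 3 (log2 0.91, SE 0.0772, edgeR adjusted p = 2.45e-08), and at day 5 its difference of 0.17 (SE 0.0765) missed the threshold (edgeR adjusted p = 0.0687). Eno2, the neuronal enolase, measured 25.0, 27.9 and 17.7 CPM in MEFD3min against 15.8, 16.1 and 13.3 in MEFD3plu, and 15.8, 20.4 and 18.4 in MEFD5min against 12.9, 12.0 and 12.8 in MEFD5plu. Every treated library was below every untreated one of its day, by 1.56-fold at day 3 (log2 -0.65, SE 0.143, edgeR adjusted p = 9.67e-04) and 1.44-fold at day 5 (log2 -0.53, SE 0.145, adjusted p = 0.00572).

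For Gapdh, Eno1 and Pkm the approximate 95% intervals of the log2 difference, from the standard error and the residual degrees of freedom of the samples, were -0.12 to 0.33, -0.11 to 0.31 and -0.09 to 0.32 at day 3, and -0.43 to 0.02, -0.17 to 0.24 and -0.41 to -0.00 at day 5. At day 5 DESeq2 called Gapdh (log2 -0.25, adjusted p = 0.0438) and Pkm (-0.25, 0.0122) lower, and edgeR did so with total counts alone (-0.37 for each, adjusted p = 0.00305 and 0.00147). With edgeR, Pkm was also called with DESeq2's size factors (-0.25, adjusted p = 0.0367) and without replicate 1 of MEFD5plu (-0.29, 0.0206), and Gapdh without replicate 1 of MEFD5min (-0.30, 0.0228). Gapdh, often taken as a reference gene, ranged all the same from 279 CPM in MEFD3min to 1024 CPM in MEFD5min. Pgk1, phosphoglycerate kinase, was 1.46-fold higher at day 3 and 1.23-fold at day 5, and the latter call (log2 0.30, edgeR adjusted p = 0.0417) was lost with DESeq2 (0.26, 0.0974) and its size factors (0.26, 0.0853), with total counts (0.14, 0.278) and on leaving out any library of the day. Part of these transcripts cannot be assigned with certainty: of the 50-base stretches in their exons, 53.9% for Pgk1, 36.2% for Pgam1, 26% for Eno1, 25.8% for Pkm and 25.1% for Gapdh also occur in other annotated genes, largely pseudogenes.

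Of 5 genes that steer pyruvate and lactate, 3 were higher and 1 lower with treatment at day 3, and 4 were higher and none lower at day 5. Of all genes, 28.0% were higher and 28.0% lower at day 3, and 26.3% and 24.2% at day 5. Slc16a1, which encodes the lactate and pyruvate carrier MCT1, measured 68.8, 67.7 and 75.7 CPM in MEFD3min and 244, 247 and 276 in MEFD3plu, then 81.7, 91.7 and 86.1 in MEFD5min and 134, 125 and 139 in MEFD5plu. MEFD3plu stood above all other libraries, and MEFD0 had 94.2 to 98.2 CPM. Treatment raised it 3.61-fold at day 3 (log2 1.85, SE 0.0794, edgeR adjusted p = 3.66e-12) and 1.54-fold at day 5 (log2 0.62, SE 0.0774, adjusted p = 4.90e-06), with a difference between the days of 1.23 (SE 0.109, adjusted p = 1.23e-07). Ldhb, the lactate dehydrogenase subunit of heart, measured 29.9, 34.4 and 35.9 CPM in MEFD0, 132, 119.5 and 147 in MEFD3min, 45.5, 47.0 and 49.6 in MEFD3plu, 47.7, 45.5 and 50.3 in MEFD5min and 81.2, 90.6 and 78.1 in MEFD5plu. The 3 untreated day 3 libraries were thus above all the others. Ldhb was 2.80-fold lower with treatment at day 3 (log2 -1.49, SE 0.0936, edgeR adjusted p = 4.84e-10) and 1.74-fold higher at day 5 (log2 0.80, SE 0.0927, adjusted p = 2.14e-06), and its difference between the days, -2.29 (SE 0.132, adjusted p = 5.80e-10), was the most negative among the members. Of the 50-base stretches of Ldhb, 21% also occur in another annotated gene, Gm5514, so part of its reads cannot be assigned with certainty.

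Ldha, the subunit of muscle that favours lactate, was 1.68-fold higher at day 3 and 1.38-fold at day 5. Pdk1, a kinase that shuts pyruvate dehydrogenase and a HIF target, was 1.29-fold and 1.43-fold higher, and ran from 27.0 CPM in MEFD0 to 208 CPM in MEFD5plu. Slc16a3, the lactate exporter MCT4, stayed at 0.202 to 0.865 CPM in all libraries, and its day 3 and day 5 intervals, -0.81 to 1.22 and -1.38 to 0.53, were wide, so that a change was not detectable at this depth.

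Of the 4 oxygen-sensing genes, 3 were higher and 1 lower at day 3, where 28.0% of all genes were higher and 28.0% lower. At day 5, 2 were higher and 1 lower, beside 26.3% and 24.2% of all genes. Hif1a was 1.36-fold higher in treated cells at day 3 (log2 0.44, SE 0.0665) and 1.27-fold at day 5 (log2 0.35, SE 0.0665), with 289 to 307 CPM in MEFD3min and 392 to 416 in MEFD3plu, and 273 to 291 in MEFD5min and 350.4 to 368 in MEFD5plu. HIF activity is set mainly at the protein, which was not measured. Epas1 was scarce: 1.79, 2.72 and 0.807 CPM in MEFD3min against 3.62, 3.38 and 3.21 in MEFD3plu, and 0.698, 0.896 and 0.189 in MEFD5min against 3.51, 3.77 and 2.59 in MEFD5plu. All treated libraries were above all untreated ones at both days, and the untreated spread was wide. Its difference at day 5 was 5.71-fold (log2 2.51, SE 0.428, edgeR adjusted p = 1.21e-04). At day 3 it was 1.90-fold (log2 0.93, SE 0.374, edgeR adjusted p = 0.0447), a call that ended without replicate 4 of MEFD3min (0.59, 0.157), without replicate 1 of MEFD3min (0.92, 0.0928), without any replicate of MEFD3plu (0.88 to 0.97), with the compared samples only (0.92, 0.0601) and with total counts (0.94, 0.0504).

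Egln3, a prolyl hydroxylase that is itself a HIF target, measured 14.9, 19.7 and 18.2 CPM in MEFD0, 117, 129 and 139 in MEFD3min, 47.6, 55.1 and 58.3 in MEFD3plu, 171, 129 and 172 in MEFD5min and 150.1, 134 and 152 in MEFD5plu. Day 0 was far below the rest, and the treated and untreated libraries overlapped at day 5 but not at day 3. The gene was 2.39-fold lower with treatment at day 3 (log2 -1.26, SE 0.123, edgeR adjusted p = 1.41e-07) and differed by -0.11 (SE 0.120, 95% interval -0.38 to 0.16) at day 5. Egln1, the main oxygen sensor, went the other way at day 3, 1.43-fold higher, and was 1.74-fold lower at day 5.

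Of the 10 other HIF targets, 4 were higher and 4 lower at day 3, where 28.0% of all genes were higher and 28.0% lower. At day 5, 3 were higher and 5 lower, beside 26.3% and 24.2% of all genes. The share that was higher at day 5 was thus near that of all genes. Ero1l, the oxidase that forms disulphide bonds in the endoplasmic reticulum, measured 124, 126 and 127 CPM in MEFD0, 136, 132 and 142 in MEFD3min, 781, 733 and 799.9 in MEFD3plu, 842, 1545 and 1187 in MEFD5min and 634, 616 and 681 in MEFD5plu. Treated cells were high at both days, and untreated cells were low at day 3 and highest at day 5, where the replicates spread from 842 to 1545 CPM. Ero1l was 5.64-fold higher with treatment at day 3 (log2 2.50, SE 0.151, edgeR adjusted p = 2.97e-10) and 1.85-fold lower at day 5 (log2 -0.89, SE 0.144, adjusted p = 7.45e-05). Without replicate 3 of MEFD5min, the smallest library and the highest for Ero1l, the day 5 difference was -0.66 (edgeR adjusted p = 2.07e-04). Its difference between the days, 3.38 (SE 0.208, edgeR adjusted p = 1.25e-09), was the largest of any member, and it lay between 3.15 and 3.58 over all alternatives tried.

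Ndrg1, a stress-responsive gene of growth arrest, measured 22.2, 28.8 and 24.9 CPM in MEFD3min against 11.0, 14.3 and 10.9 in MEFD3plu, and 78.8, 124 and 95.8 in MEFD5min against 35.3, 38.4 and 36.6 in MEFD5plu. The groups did not overlap at either day. It was 2.10-fold lower at day 3 (log2 -1.07, SE 0.164, edgeR adjusted p = 2.77e-05) and 2.71-fold lower at day 5 (log2 -1.44, SE 0.156, adjusted p = 1.05e-06). Ankrd37, an ankyrin repeat protein, measured 5.14, 6.32 and 5.78 CPM in MEFD3min against 2.01, 2.01 and 2.37 in MEFD3plu, and 35.8, 46.6 and 47.5 in MEFD5min against 21.7, 22.2 and 23.2 in MEFD5plu. Here too no treated library reached its untreated counterparts, and the gene was 2.69-fold lower at day 3 (log2 -1.43, SE 0.174, edgeR adjusted p = 2.07e-06) and 1.94-fold lower at day 5 (log2 -0.95, SE 0.137, adjusted p = 2.20e-05). Exons of Lrp2bp and Ufsp2 on the opposite strand cover 26.4% of its exon length, and without a stated strand setting their reads cannot be told apart.

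Bnip3, which marks mitochondria for removal, was 2.52-fold higher with treatment at day 3 and 1.77-fold at day 5, from 41.8 to 67.1 CPM in MEFD3min, 116 to 153 in MEFD3plu, 309.7 to 403 in MEFD5min and 596 to 683 in MEFD5plu. Of its 50-base stretches 47.2% occur in other genes, Gm45507 on the opposite strand among them. Its relative Bnip3l was 1.20-fold higher at day 5 alone, and that call (log2 0.26, edgeR adjusted p = 0.0419) was lost with DESeq2 (0.22, 0.109) and its size factors (0.22, 0.0964), with total counts (0.10, 0.376) and on leaving out any library of the day. Car9, a carbonic anhydrase at the cell surface, was 2.19-fold and 1.93-fold higher on levels of 0.689 to 5.32 CPM. Vegfa, the angiogenic growth factor, was 1.70-fold higher at day 3 and 1.24-fold lower at day 5, the latter lost without replicate 3 of MEFD5min (log2 -0.23, edgeR adjusted p = 0.130) or replicate 3 of MEFD5plu (-0.26, 0.107). Adm, the vasodilator adrenomedullin, and P4ha1, a collagen prolyl hydroxylase, were 1.49-fold and 1.68-fold lower at day 3 and not called at day 5, while the related P4ha2 was 1.74-fold lower at day 5.

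**Figure D3:**
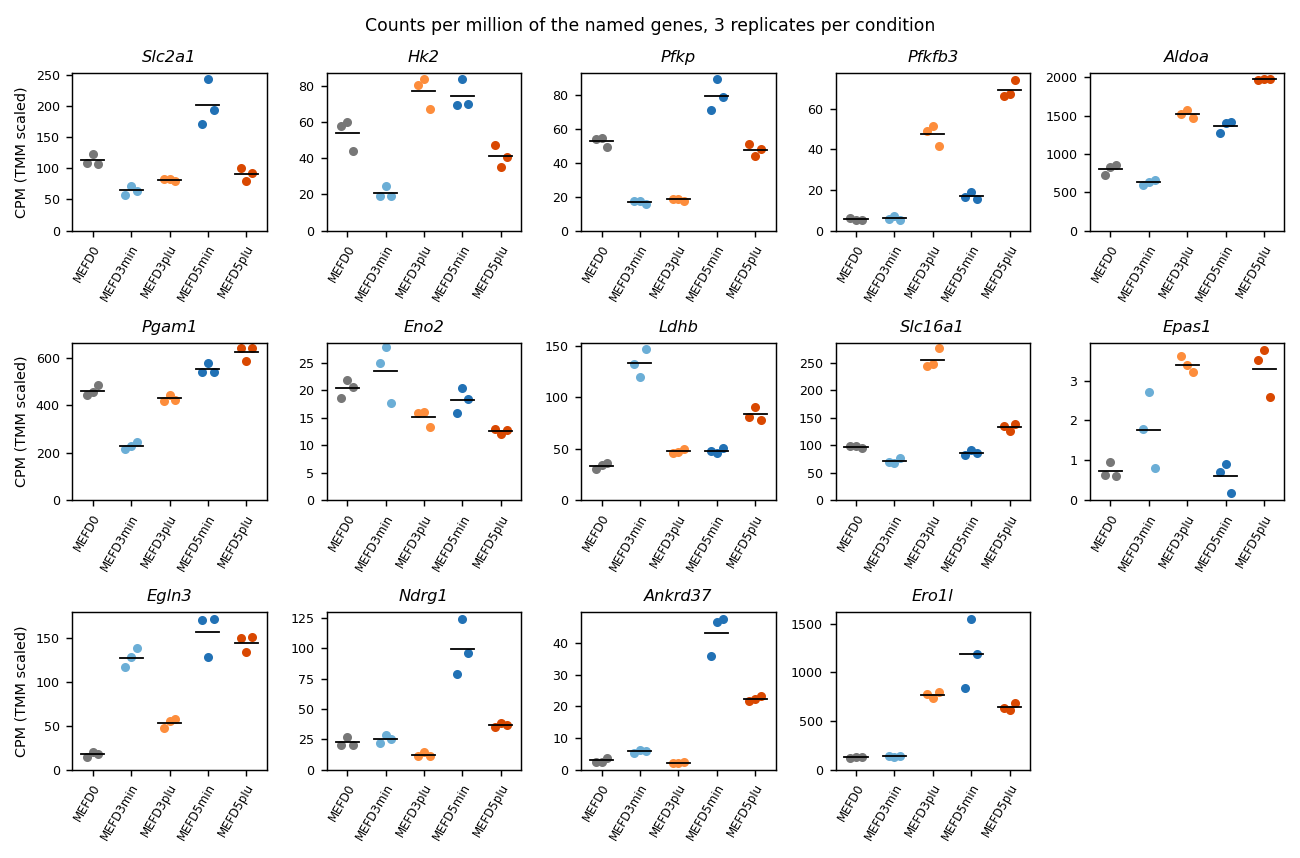
Each panel shows a named gene's CPM, on an axis from 0, in 3 replicates (points, in the order 1, 3 and 4) of each of the 5 conditions, with a bar at the mean. Ero1l, Hk2 and Slc2a1 rise from MEFD3min to MEFD5min, Hk2 is lower in MEFD5plu than in MEFD3plu, Ldhb peaks in MEFD3min, and Pfkfb3 is high in both treated conditions.

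Untreated cells were also compared between days. Between MEFD0 and MEFD3min 13 members rose (36.1%, beside 31.4% of all genes) and 14 fell (38.9%, beside 28.6%). The share that rose was near that of all genes, and the median log2 change was 0.14 against 0.04. The split varied with the role. In lower glycolysis 5 of 6 members fell and none rose, with Eno1 2.61-fold, Pkm 2.21-fold and Pgam1 2.01-fold lower, and in upper glycolysis 5 of 10 fell and 2 rose. Among the other HIF targets 7 of 10 rose and none fell, with Adm 6.72-fold and P4ha1 3.15-fold higher. The largest rise was that of Egln3, 7.29-fold (log2 2.87, SE 0.132, edgeR adjusted p = 8.38e-12), and the largest fall that of Pfkp, 3.13-fold (log2 -1.64, SE 0.0948, adjusted p = 1.42e-10). Pfkp measured 54.2, 54.8 and 49.5 CPM in MEFD0, 17.6, 17.3 and 15.8 in MEFD3min, 18.6, 18.6 and 17.7 in MEFD3plu, 70.8, 89.1 and 78.5 in MEFD5min and 50.9, 43.7 and 48.2 in MEFD5plu. It was low at day 3 with or without treatment and had come back by day 5.

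From MEFD3min to MEFD5min most members rose: 26 of 36 were higher, where 21.3% of all genes were, and 4 lower, where 21.5% were. Of these, 21 rose at least 2-fold, and the median log2 change was 1.17 against -0.03 for all genes tested. All 5 members of lower glycolysis other than Eno2 rose at least 2-fold, and so did 7 of 10 in upper glycolysis. Ero1l rose most, 8.71-fold (log2 3.12, SE 0.155, edgeR adjusted p = 1.04e-10), followed by Ankrd37 at 7.52-fold and Bnip3 at 7.06-fold, while Epas1 fell 3.11-fold (log2 -1.64, SE 0.441, adjusted p = 0.00629) and Ldhb 2.78-fold. Replicates of Epas1 overlapped between MEFD3min, at 0.807 to 2.72 CPM, and MEFD5min, at 0.189 to 0.896. Eno2 fell 1.29-fold with overlapping replicates, a call that ended with total counts alone (log2 -0.28, edgeR adjusted p = 0.175), with the compared samples only (-0.36, 0.131), and without replicate 1 (-0.33, 0.129) or 3 of MEFD3min (-0.23, 0.205) or replicate 1 (-0.28, 0.178) or 4 of MEFD5min (-0.38, 0.0767).

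From MEFD3plu to MEFD5plu, as the mixture was taken off, 22 members rose, where 33.8% of all genes did, and 4 fell, where 29.2% did. The median was 0.53 against 0.06, and 13 rose at least 2-fold while none fell that far. Ankrd37 rose 10.5-fold (log2 3.39, SE 0.167, edgeR adjusted p = 4.06e-11), Bnip3 4.94-fold and Pdk1 4.11-fold, and lower glycolysis rose in 5 of 6 members. Slc16a1 fell 1.92-fold (log2 -0.94, SE 0.0773, adjusted p = 2.04e-08) and Hk2 1.88-fold, with Pfkm and Pfkfb4 the other members that fell. Day and change of medium are the same step in the treated cells, so that they cannot be told apart.

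**Figure D4:**
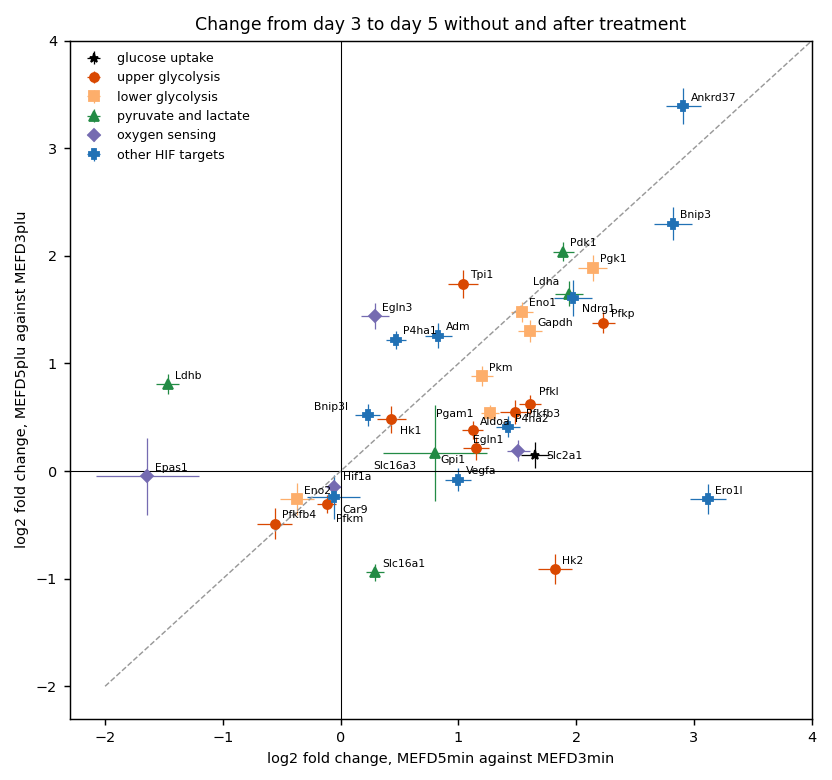
Each point is a gene, with its log2 fold change from day 3 to day 5 in untreated cells (horizontal) and in cells treated until day 3 (vertical), bars of 1 standard error, shapes and colours for the roles, and a dashed line where both changes are equal. Most genes lie to the right of 0 and above 0, Ero1l, Hk2, Slc2a1 and Egln1 lie far below the line, and Ldhb, Egln3 and Tpi1 lie above it.

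Genes on the routes into and out of glycolysis, listed beside the members by function, also differed with treatment. Of all tested genes, 28.0% were higher and 28.0% lower at day 3, and 26.3% and 24.2% at day 5. Of 12 genes for pyruvate entry into mitochondria, 10 were higher at each day, with 1 lower at day 3 and none at day 5, and medians of 1.56 and 1.51 on the log2 scale. Mpc1 and Mpc2, the pyruvate carrier of the inner membrane, were 5.90-fold and 4.37-fold higher at day 3 and 5.95-fold and 5.49-fold at day 5, Dlat and Pdhx of the pyruvate dehydrogenase complex 4.03-fold and 4.35-fold at day 3 and 1.79-fold and 2.94-fold at day 5, and Pdk4, an inhibitory kinase of that complex, 85.7-fold and 28.3-fold. Of 7 pentose phosphate genes, which make NADPH and ribose, 6 were higher at day 3 and 5 at day 5, and none was lower at either.

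Genes for glycerol 3-phosphate and its supply numbered 7 tested of 10, with 4 higher and 1 lower at day 3 and 3 higher and 1 lower at day 5. The shares were 57.1% and 14.3% at day 3 (28.0% and 28.0% of all genes) and 42.9% and 14.3% at day 5 (26.3% and 24.2%). Gpd1, which turns a glycolytic triose into glycerol 3-phosphate, had 0 to 19 counts per library in the 9 untreated libraries, 223 to 276 CPM in MEFD3plu and 582 to 595 CPM in MEFD5plu. Pck1, the cytosolic carboxykinase of glyceroneogenesis, had no count in any untreated library, 40 to 57 counts in MEFD3plu and 485 to 568 in MEFD5plu. Pcx, pyruvate carboxylase, was 73.2-fold higher at day 3 and 26.5-fold at day 5. Among 18 tested of 25 further sugar genes, 11 were higher and 3 lower at day 3 (61.1% and 16.7%). At day 5, 7 were higher and 1 lower (38.9% and 5.56%). Slc2a4, the insulin-responsive transporter GLUT4, had at most 2 counts per untreated library, 5.04 to 5.53 CPM in MEFD3plu and 11.8 to 12.6 in MEFD5plu. Per kilobase of exon it had a mean of 1.50 CPM per kb in MEFD3plu and 3.53 in MEFD5plu, where Slc2a1 had 23.3 and 25.8. Pygl, the liver glycogen phosphorylase, had at most 32 counts in any library.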

How the data were processed

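Total RNA of 15 MEF samples, in 5 conditions of 3 replicates, was sequenced by the authors. The deposited files hold raw counts per Ensembl gene, with no normalization, and were used as deposited by the authors, 1 file per sample. The submitters' processing notes name TopHat2 2.1.0, HTSeq, DESeq2 and the builds GRCm38 and mm10. How strand and multiply mapped reads were counted is not given in the sources used here, and the labels name the TruSeq RNA Library Prep Kit v2 where the study's methods name a stranded mRNA kit. Strain and embryo age are those of the labels, and the study's introduction describes MEFs with others. Of 46603 identifiers, 46005 were named through GENCODE M21. Totals were 24030558 to 37281126 counts per library.

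The main test was edgeR 4.0.16 (R 4.3.3), with TMM scaling, filterByExpr over the 5 conditions, glmQLFit and glmQLFTest on all 15 samples, no covariate, and Benjamini-Hochberg adjustment over 15997 genes. Calls were made at an adjusted p under 0.05. In each role per-sample values are given for the members with the largest called treatment change and for the extremes of the other comparisons. A non-member is named where it was called with a log2 change of at least 2. On simulated day 3 counts of 15467 genes, 196 of 200 changed genes were recovered with 7 false calls. Recovery of changes under 2-fold, or with the spread of the real replicates, was not tested. These numbers therefore give no error rate for the calls reported here. Apart from the log2 values of Aldoc against MEFD3min, no fold is given against a condition whose libraries all held 3 counts or fewer. That floor covers counting error only. Same-numbered samples of MEFD3min and MEFD3plu deviated together (correlations 0.143, 0.228 and 0.360), so the numbers were taken as pairing these, a hint from the data alone, and the replicate block changed no member's call at day 3. Replicates of a condition differed by more than sampling noise. Alternatives were DESeq2 1.42.0, its size factors, total counts, other filters, the compared samples only, a 2-fold minimum, a replicate block and leaving out each replicate. The members and lists were chosen with earlier results of these data known.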

Additional observations from a re-analysis of the deposited data

Results flagged for a closer look

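The treatment effect differed between day 3 and day 5 by edgeR's quasi-likelihood test for 20 members, given here as the log2 effect at day 3 minus that at day 5. It was positive for Ero1l (3.38), Hk2 (2.73), Slc2a1 (1.50), Egln1 (1.32), Slc16a1 (1.23), Vegfa (1.08), P4ha2 (1.02), Pfkl (0.99), Gpi1 (0.94), Pfkfb3 (0.93), Pfkp (0.85), Aldoa (0.74), Pgam1 (0.73) and Pkm (0.32). It was negative for Ldhb (-2.29), Epas1 (-1.59), Egln3 (-1.15), P4ha1 (-0.75), Tpi1 (-0.70) and Adm (-0.43).

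The differences of Pkm and Adm lay close to the threshold, and their size moved little in most of the fits that ended the call. For Pkm the edgeR adjusted p was 0.0485, and the value was 0.28 without replicate 3 of MEFD5plu (0.123), 0.28 without replicate 1 of MEFD3min (0.119), 0.31 with no filter (0.0984) and 0.36 with the compared samples only (0.0548). It was 0.29 to 0.35 in the other fits with a library of day 3 or 5 left out in which the call ended, which were all but those without replicate 4 of MEFD3min, replicate 4 of MEFD5min or replicate 1 of MEFD5plu. For Adm the edgeR adjusted p was 0.0336, and the value stayed at -0.38 to -0.44 where the call ended without a library, with the highest p, 0.0806, without replicate 1 of MEFD3plu. The others were replicate 3 of MEFD3plu, replicate 3 of MEFD3min, replicates 1 and 4 of MEFD5plu and each replicate of MEFD5min. With scaling by total counts alone it was -0.25 (edgeR adjusted p = 0.210). For Epas1 the value was -1.08 without replicate 4 of MEFD5min (edgeR adjusted p = 0.0904) and -1.13 without replicate 3 of MEFD3min (0.0958), and the call also ended without replicate 3 of MEFD3plu (0.0517) or replicates 1 (0.0552) or 3 (0.0645) of MEFD5plu and with total counts alone (0.0576). Groups of 3 replicates were not screened for single outlying samples.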

How the results depend on the processing

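Leaving out each replicate in turn gave 15 to 18 members higher and 8 to 8 lower at day 3, 11 to 13 and 12 to 14 at day 5, 13 to 19 and 4 to 6 for the difference between the days, 12 to 14 and 14 to 16 from MEFD0 to MEFD3min, 26 to 29 and 3 to 4 from MEFD3min to MEFD5min, and 22 to 22 and 4 to 4 from MEFD3plu to MEFD5plu. Some of these fits also tested Aldoc, and over the 36 members alone the highest count was 18 for the difference between the days, and the range 25 to 28 from MEFD3min to MEFD5min. A 2-fold minimum left 8 higher and 4 lower at day 3, 2 and 2 at day 5, 7 and 3 for the difference between the days, 6 and 6 from MEFD0 to MEFD3min, 2 lower from MEFD3min to MEFD5min, and 13 higher and 0 lower from MEFD3plu to MEFD5plu. Fitting the compared samples only gave 7 lower from MEFD3plu to MEFD5plu. The difference between the days of Eno2, -0.11, turned to 0.07 with total counts alone and ran from -0.28 to 0.03 on leaving out a replicate (0.03 without replicate 3 of MEFD3min), and was called in none of these. A fit with the replicate number as a block gave 18 higher and 8 lower at day 3, 15 and 13 at day 5, and 17 and 7 for the difference between the days, with Gapdh, Bnip3, Ndrg1 and Ankrd37 added there. The block also added Pfkfb4 from MEFD0 to MEFD3min (-0.34, edgeR adjusted p = 0.0236) and Egln3 (0.29, 0.0330) and Bnip3l (0.24, 0.0258) from MEFD3min to MEFD5min, and changed no other call. Outside the day 3 comparison, in no other pair of conditions did all 3 same-numbered pairs correlate above 0.1, and there the samples share a number only (10 of all 30 pairs above 0.1, -0.152 to 0.360). With DESeq2 the day 5 counts were 12 and 15, with Pfkl, Pgk1 and Bnip3l lost and Gapdh and Pkm added. The causes of these changes were not tested, other than that fewer samples enter the fits that leave some out.

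Depth limits most the members that stayed under 10 CPM in every library, which were Slc2a3, Aldoc, Slc16a3, Epas1 and Car9. Counts of Pgk1, Pgam1, Bnip3 and the other members with near-identical copies depend on how shared reads were assigned. Ldhb, Bnip3l and Gpi1 are among these, with 21%, 20.8% and 15.8% of their 50-base stretches in other genes. Exons of Gm26762 on the opposite strand also cover 11.5% of the exon length of Gpi1.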

Other observations

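HIF targets outside the 38 genes, listed by function as well, went their own ways. Of 21 tested of 24, 10 were higher and 5 lower with treatment at day 3, and 4 higher and 10 lower at day 5, where the median log2 difference was -0.19 against 0.01 for all genes. The shares were 47.6% and 23.8% at day 3 (28.0% and 28.0% of all genes) and 19.0% and 47.6% at day 5 (26.3% and 24.2%). Angptl4, a secreted inhibitor of lipoprotein lipase that HIF and PPAR receptors both drive, measured 0.470 to 0.706 CPM in MEFD3min and 33.0 to 37.6 in MEFD3plu, and 2.60 to 3.73 in MEFD5min and 68.2 to 71.9 in MEFD5plu, which was 56.9-fold and 21.2-fold higher. Ddit4, an inhibitor of mTORC1, was 5.41-fold higher at day 3 and Higd1a, a mitochondrial protein of low oxygen, 5.03-fold, and neither was called at day 5. Tfrc, the transferrin receptor, was 4.09-fold higher at day 3 and 1.31-fold lower at day 5, and it ran from 33.6 to 46.4 CPM in MEFD3min against 263 to 288 in MEFD0. Car12, a carbonic anhydrase like Car9, moved against it: Car12 was 13.1-fold lower at day 5, from 5.75 to 10.4 CPM in MEFD5min to 0.419 to 0.844 in MEFD5plu, where Car9 was 1.93-fold higher. At day 3 Car12 had 1 to 4 counts per treated library against 10 to 30 in untreated ones.

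Among 10 regulators of HIF, 5 were higher and 1 lower at day 3, beside 28.0% and 28.0% of all genes. At day 5, 3 were higher and 2 lower, beside 26.3% and 24.2% of all genes. The day 5 counts were thus near the shares of all genes. Hif3a, a HIF subunit whose forms can oppose the other subunits, had no count in MEFD0, 0.841 to 1.43 CPM in MEFD3min and 60.2 to 92.2 in MEFD3plu, and 0.195 to 0.726 in MEFD5min and 19.6 to 21.9 in MEFD5plu. The differences were 74.3-fold at day 3 (log2 6.21, SE 0.245) and 40.6-fold at day 5 (log2 5.34, SE 0.272), with edgeR quasi-likelihood adjusted p = 1.12e-11 and 5.47e-10. Hif1a and Epas1 were higher by 1.36-fold and 1.90-fold at day 3 and by 1.27-fold and 5.71-fold at day 5 in the same fit. The day 3 call of Epas1 ended in several alternatives.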
